A study of Mus musculus with 8 samples.

Results

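The genes of hepatic glucose metabolism were examined in livers of mice without liver X receptors (LXRs): 36 genes chosen by name as enzymes, transporters and regulators of glycolysis, gluconeogenesis, glycogen, fructose and the pentose phosphate pathway, together with Mlxipl, which encodes the carbohydrate response element-binding protein ChREBP. All 36 were found by symbol among the 25010 genes of the table and all 36 had enough reads to be tested. RNA-Seq had been performed on the left liver lobe of 2 wild-type (WT) mice and 2 LXRDKO mice, which lack LXRα (Nr1h3) and LXRβ (Nr1h2) in every tissue. All 4 mice were of the C57BL/6 background, 8 wk old and on standard chow, and were fasted for 4 to 6 h before they were killed. The fasting time of each single mouse and its sex were not given in the sources used here. The values are normalized counts, that is, reads counted on a gene divided by the size factor of its library.

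The liver takes up glucose after a meal, stores it as glycogen and burns or converts the excess, and during fasting it releases glucose from glycogen and makes it anew from lactate, glycerol and amino acids. Many of these genes answer to feeding within hours. ChREBP, activated by glucose metabolites, drives glycolytic and lipogenic genes in the fed liver, whereas glucagon, cAMP and glucocorticoids drive the gluconeogenic genes in the fasted liver. LXRs are nuclear receptors for oxysterols that are best known for driving cholesterol efflux and lipogenesis, and Mlxipl has been described as one of their targets.

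Reads counted on genes ran from 55772659 to 72842744 per liver, and the median absolute log2 difference between livers of one genotype was 0.18 (WT) and 0.17 (LXRDKO) over all genes tested. Both deleted receptors were lower in both LXRDKO livers, with log2 fold changes of −1.65 for Nr1h3 and −1.66 for Nr1h2 (adjusted P = 0.0147 for each, limma), so the labels matched the genotypes. Hepatocyte markers such as Alb were the most abundant marker RNAs in all livers. Summed markers of Kupffer cells lay between 12016 and 13575 normalized counts in WT and between 3979 and 6790 in LXRDKO livers, and those of T and B cells between 194 and 239 against 82.5 and 105. Of the 8 Kupffer cell markers, limma called 3, edgeR 4 and DESeq2 5, and 1 had a positive log2 fold change. Of the 6 T and B cell markers, 5 had enough reads to be tested, and limma, edgeR and DESeq2 called none. Summed endothelial markers were also lower in LXRDKO livers (9253 to 10344 in WT, 6005 to 7849 in LXRDKO). Of these 6 markers, limma, edgeR and DESeq2 each called 1, Kdr, and 1 had a positive log2 fold change. Summed markers of stellate cells (17685 to 17964 in WT, 24125 to 25781 in LXRDKO) and cholangiocytes (2084 to 3599 against 4572 to 5426) were higher in LXRDKO livers. DESeq2 called 2 of the 6 stellate and 1 of the 6 cholangiocyte markers, and limma and edgeR called none. In whole liver, fewer cells of a type and less RNA per cell cannot be told apart, and the part of these cells in the values below was not tested.

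None of the 36 genes differed between genotypes at an adjusted P value of 0.05 in limma, where 50 of the 15578 genes tested (0.321%) did. The quasi-likelihood test of edgeR also called 0 of the 36, beside 0.315% of all genes. DESeq2 called 1 of the 36, Pklr, beside 3.59% of all genes. Without adjustment, 5 of the 36 (Pklr, Slc37a4, Gys2, Ppargc1a and Creb3l3) had a limma P value under 0.05, a share of 13.9% against 13.3% of all genes. Log2 fold changes of the 36 ran from −0.83 to 0.58 with a median of −0.07, beside a median of −0.00 for all genes. The median absolute log2 fold change was 0.13 for the 36 genes and 0.13 for the 10930 genes whose mean was at least that of the lowest member. The genotypes did not overlap in 13 genes: the LXRDKO pair was above the WT pair in 4 (11.1%, against 21.7% of all genes) and below it in 9 (25.0%, against 23.0%). The share of these genes called or separated between genotypes thus stayed near that of all genes or below it.

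With 2 livers against 2 the intervals still bounded most differences. The 95% confidence interval of the fold change lay within 1.5-fold in either direction for 21 of the 36 genes (58.3%, against 45.8% of all genes tested) and within 2-fold for 32 (88.9% against 68.5%). The 4 genes whose interval passed 2-fold were Pklr, G6pc, Pfkfb3 and Ppp1r3g. For a single gene, exact permutation of the 4 livers (two-sided) gives no P below 0.33, so the limma, edgeR and DESeq2 values rest on the spread pooled over genes. Adjusted P values below are from limma unless another tool is named.

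**Figure D1:**
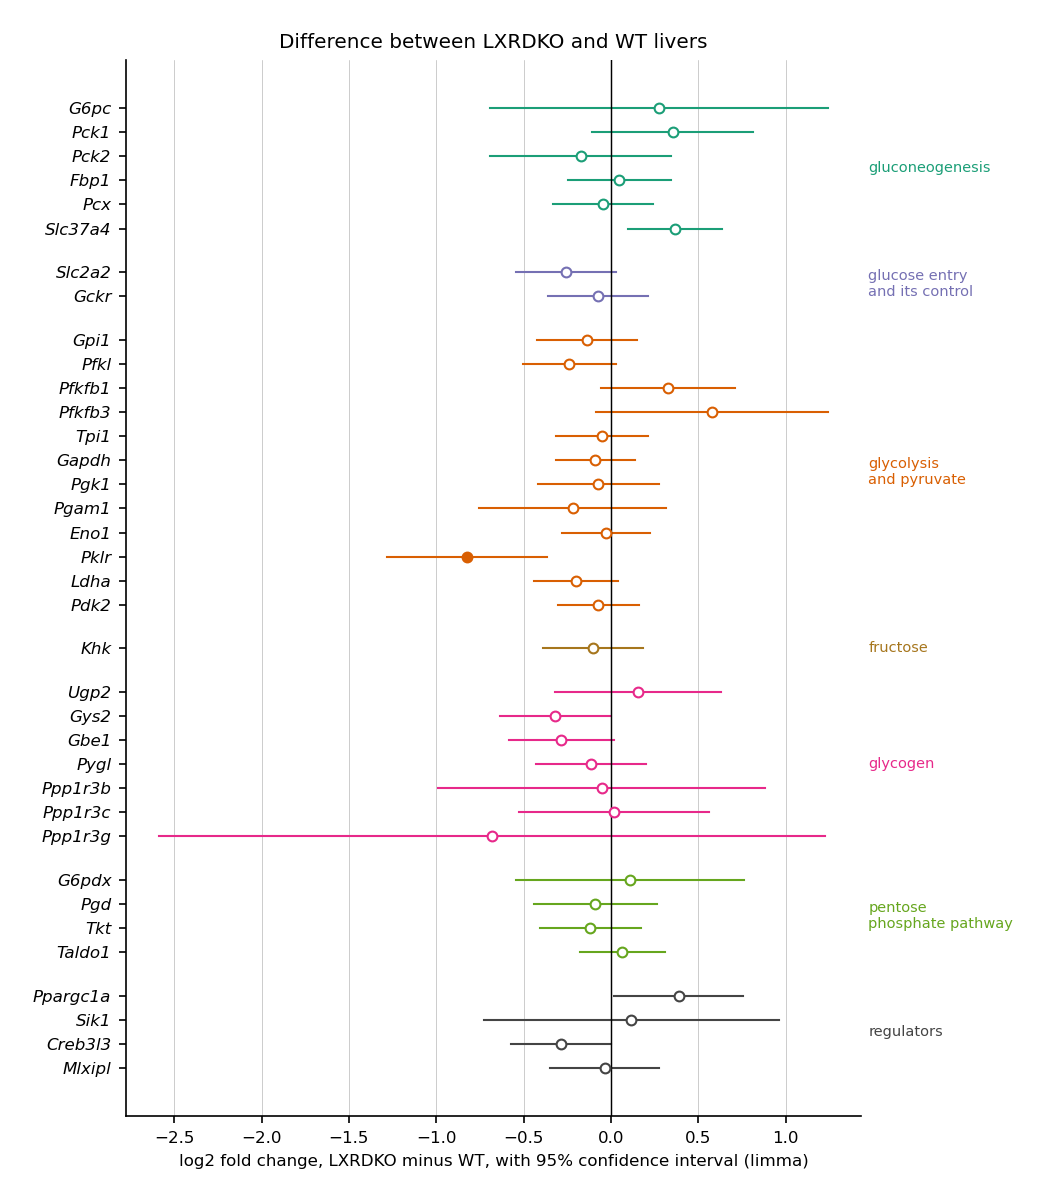
Log2 fold change (LXRDKO minus WT, x axis) of each of the 36 genes (y axis, grouped and coloured by role), with the 95% confidence interval of limma as a line. The filled point is Pklr, the gene that DESeq2 called. Most intervals cross 0 and Pklr lies farthest to the left at −0.83.

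Pklr, on chromosome 3 from 89136142 to 89146784 of the plus strand of GRCm38, encodes the liver and red cell pyruvate kinase, which catalyses the last step of glycolysis. It is a classical ChREBP target, and its response to carbohydrate was mapped to a pair of E-box-like motifs before the liver-type start. That stretch is shown because Pklr was the member called by DESeq2, beside the promoter of Pck1, the most abundant member, which holds a cAMP response motif. Both sequences came from the RefSeq promoter windows (GRCm38.p6) and end before the next annotated transcript start. The Pklr stretch, chr3:89136373-89136571 on the plus strand, lies in the first intron of the longest annotated transcript and directly before the start of the transcript that begins downstream. Capitals mark the pair of motifs CACGNG and CNCGTG, whose first base is 170 bases before the RefSeq start. In Pck1, at chr2:173152823-173153047 on the plus strand, capitals mark the motif TGACG read on the other strand, 90 bases before the RefSeq start, which lies downstream of the end of the printed stretch.
Pklr: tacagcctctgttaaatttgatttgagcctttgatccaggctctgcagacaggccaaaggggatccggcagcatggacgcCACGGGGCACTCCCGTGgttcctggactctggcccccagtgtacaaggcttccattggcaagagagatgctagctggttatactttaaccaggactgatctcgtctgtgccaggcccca
Pck1: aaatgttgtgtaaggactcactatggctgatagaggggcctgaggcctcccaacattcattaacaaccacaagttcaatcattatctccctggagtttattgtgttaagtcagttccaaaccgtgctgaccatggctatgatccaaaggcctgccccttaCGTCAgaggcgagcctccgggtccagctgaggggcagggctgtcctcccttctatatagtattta

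A pair of motifs CACGTG with 5 bases between them, planned beforehand, occurred in 0 of 27025 genes with a promoter window. The looser pair of CACGNG and CNCGTG with the same spacing was set after the Pklr sequence had been seen. On both strands, 14 of 27025 genes with a promoter window (0.0518%) held such a pair, and Pklr was the 1 gene among the 33 members with a window that did. Windows for Gys2, Ppp1r3b and Sik1 were missing. The E-box CACGTG was found in 7 members (Pcx, Pfkfb3, Ldha, Pdk2, Khk, Ppp1r3c and Mlxipl; 21.2%), against 8.09% of all genes. The cAMP response motif TGACG was present in 11 members (33.3%) against 23.05% of genes, and in Khk a match overlapped an E-box. The nuclear receptor motif AGGTCA was present in 10 members (30.3%) against 18.1% of genes. Its exact direct repeats DR1 and DR4 occurred in 13 (0.0481%) and 4 (0.0148%) of the 27025 genes and in 0 members. With shares that low, 0 of 33 members tells nothing about the group. A gene with several windows, such as Pfkfb3, Ldha and Pklr, counted if any of them held a match. The shares were not adjusted for the number of windows per gene. A match describes letters in a window and is not a binding site.

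Normalized counts of Pklr were 20696 in WT liver 1, 14504 in WT liver 2, 10483 in LXRDKO liver 1 and 9120 in LXRDKO liver 2. The LXRDKO pair lay wholly below the WT pair, and the log2 difference of the genotype means exceeded that between the livers of either genotype. The LXRDKO mean was 0.557 of the WT mean, and the log2 fold change of −0.83 ± 0.19 (SE) had a 95% interval of −1.28 to −0.37. The adjusted P value was 0.170 in limma, 0.178 in edgeR and 0.00138 in DESeq2. With 1 liver left out, its genotype is a single liver that is assumed to vary like the other genotype. On that footing the DESeq2 call was lost without WT liver 1 (log2 fold change −0.57, adjusted P = 0.0839) and without LXRDKO liver 2 (−0.75, adjusted P = 0.100), and it held without WT liver 2 (−1.08, adjusted P = 3.93e-06) and without LXRDKO liver 1 (−0.95, adjusted P = 0.00938). In limma the value without WT liver 2 was −1.08 and then passed the threshold (adjusted P = 0.0237). Of the annotated transcript of Pklr, 23.2% of 50-base stretches also occur in Hcn3, which overlaps it on the opposite strand and had a mean of 115 normalized counts. The library kit marks strand.

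The other glycolytic enzymes had smaller differences. Of the 12 genes of glycolysis and pyruvate, 10 had a negative log2 fold change and 2, Pfkfb1 and Pfkfb3, a positive one, although Eno1 turned positive under upper-quartile scaling and Eno1 and Tpi1 under scaling to the library total. The LXRDKO pair was below the WT pair in 5 of them (41.7%, against 23.0% of all genes): Pfkl (phosphofructokinase, log2 fold change −0.24), Gapdh (−0.09), Pgam1 (−0.22), Pklr and Ldha (lactate dehydrogenase A, −0.20). Besides Pklr, none of these was called by limma, edgeR or DESeq2, and the other 11 all had an unadjusted limma P value above 0.05. Gpi1, Tpi1, Pgk1 and Eno1, which act between the hexose phosphates and phosphoenolpyruvate, had log2 fold changes from −0.14 to −0.03 with overlapping livers. Pseudogenes or close copies share 50-base stretches with several of these genes, namely 82.5% of the stretches of Gapdh, 72.2% of Eno1, 68.0% of Pgk1, 41.5% of Pgam1, 25.3% of Gpi1 and 16.65% of Ldha. Their levels are uncertain to that extent, since the handling of shared reads was not given in the sources used here.

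Pfkfb1 and Pfkfb3 encode bifunctional enzymes that make and degrade the allosteric activator of phosphofructokinase. For Pfkfb3 the WT livers had 1377 and 900 normalized counts and the LXRDKO livers 2025 and 1359. The lower LXRDKO liver fell just under the higher WT liver, and each genotype had a high and a low liver. The log2 fold change was 0.58 ± 0.27 (SE), with an interval of −0.09 to 1.24 and an adjusted P of 0.430. Pfkfb1, the main form in liver, measured 3232 and 2498 (WT) against 3295 and 3861 (LXRDKO). Its 2 LXRDKO livers were above both WT livers, the closest pair by a small margin (log2 fold change 0.33 ± 0.15 [SE], adjusted P = 0.438). Pdk2, a kinase that switches off pyruvate dehydrogenase, had 12724 and 11627 against 11629 and 11503, so that the genotypes overlapped (log2 fold change −0.07 ± 0.09 [SE], adjusted P = 0.809).

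Levels differed widely between the genes. Exon length was that of all annotated exons of a gene merged, which can exceed a single transcript (for Pck2 7806 against 4625 bases). The levels per kb and the ranks depend on that choice. Per kb of exon, Pck1 stood first of the 36 genes with a mean over the livers of 71356 normalized counts per kb and Fbp1 second with 35196. G6pc (9388) and Gys2 (9319) came next and did not differ beyond the spread of their livers, followed by Pcx (8825), Creb3l3 (8821) and Khk (7612). At the other end stood Pck2 with 42.6, Pgam1 with 65.2, G6pdx with 65.4, Ppp1r3g with 87.0 and Ppargc1a with 123 per kb. Mlxipl ranked 10 of 36 with 5285 per kb and Pklr 14 with 4234.

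**Figure D2:**
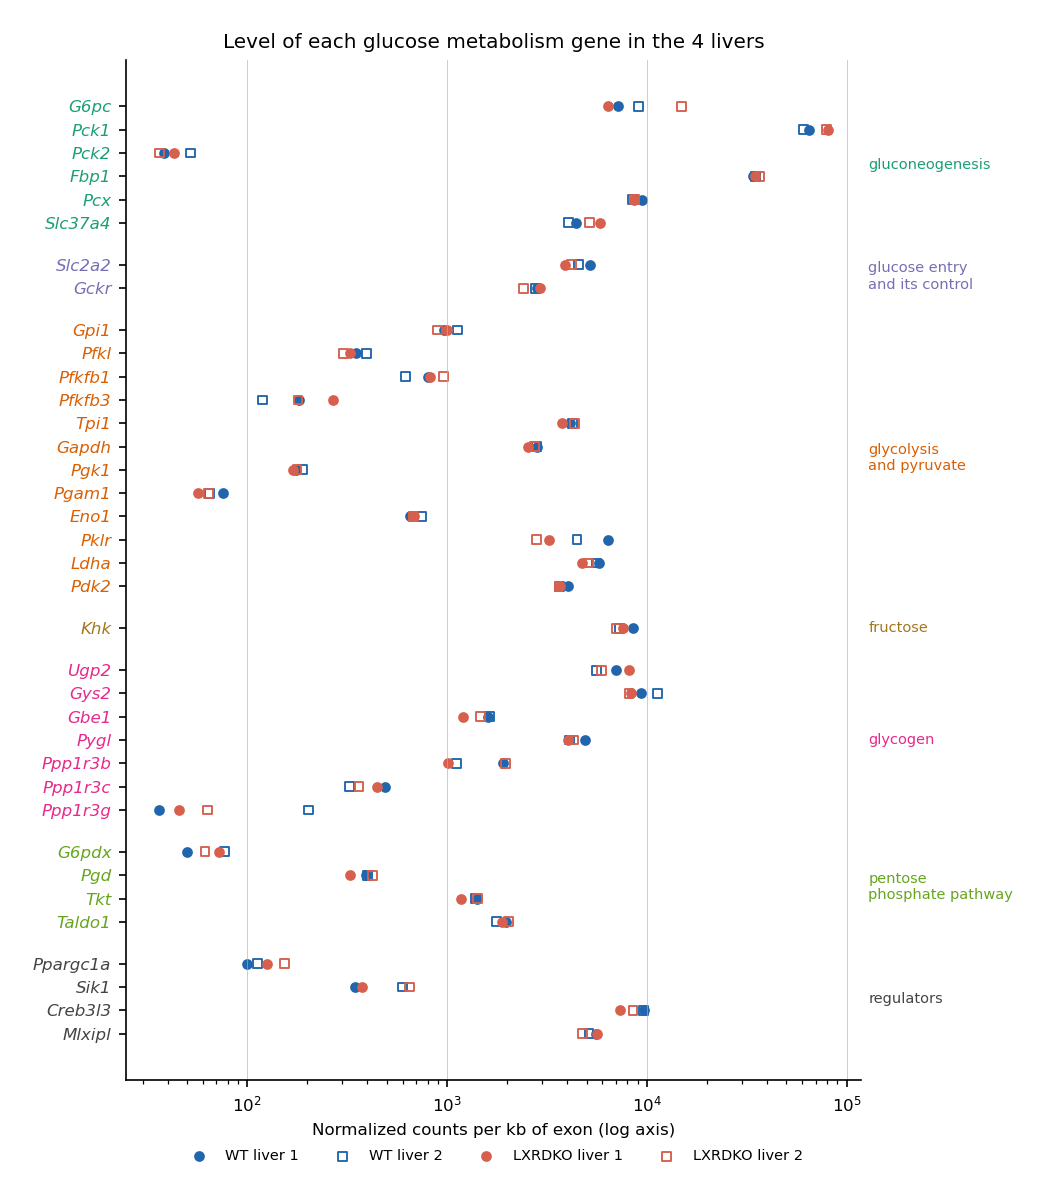
Normalized counts per kb of exon (x axis, log scale) for each gene (y axis, by role) in the 4 livers. Circles are liver 1 and open squares liver 2, WT in blue and LXRDKO in red. Levels span from about 42.6 per kb (Pck2) to 71356 (Pck1), and for most genes the 4 livers lie close together.

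Pck1, on chromosome 2 from 173153048 to 173159273, encodes the cytosolic phosphoenolpyruvate carboxykinase that commits oxaloacetate to glucose. Its counts were 221969 and 208089 (WT) against 275635 and 273024 (LXRDKO). Both LXRDKO livers exceeded the WT pair, and the livers of a genotype differed by at most 0.09 on the log2 scale. The mean was 27.6% higher in LXRDKO, but at a log2 fold change of 0.35 ± 0.19 (SE) it did not pass the threshold (adjusted P = 0.492 in limma, 0.385 in edgeR and 0.0972 in DESeq2). Slc37a4, the carrier that brings glucose 6-phosphate into the endoplasmic reticulum, had 12708 and 11604 against 16612 and 14727. Its LXRDKO livers also both exceeded the WT livers, with a log2 fold change of 0.37 ± 0.11 (SE), an interval of 0.10 to 0.63 and an adjusted P of 0.261. G6pc, the catalytic subunit of glucose-6-phosphatase that works with this carrier, measured 17336 and 21902 (WT) against 15403 and 36007 (LXRDKO). One LXRDKO liver was the lowest of the 4 and the other the highest, which left the difference undetermined (log2 fold change 0.27 ± 0.39 [SE], adjusted P = 0.831).

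Fbp1, fructose bisphosphatase, and Pcx, pyruvate carboxylase, had log2 fold changes of 0.05 and −0.05, with intervals of −0.25 to 0.34 and −0.33 to 0.24. Pck2, the mitochondrial form of the carboxykinase, had a mean of 354 ± 76.6 (SD, n = 2) in WT and 311 ± 36.6 (SD, n = 2) in LXRDKO livers, and the livers overlapped. Summed over the 6 gluconeogenic genes, normalized counts per kb were 119911 and 117548 in WT and 136208 and 145039 in LXRDKO livers, a sum in which Pck1 weighs most. The 12 genes of glycolysis and pyruvate summed to 26340 and 24073 per kb in WT and 21293 and 21941 in LXRDKO. These sums are descriptions without a test, and they separated the genotypes in opposite directions. Much of the difference in the glycolytic sum was Pklr, with 6396 and 4482 per kb in WT and 3239 and 2818 in LXRDKO livers. With these Pklr values taken out of the glycolytic sum, both LXRDKO livers still lay below both WT livers, by a smaller margin. Without Pck1 the gluconeogenic sum was 55178 and 56863 per kb in WT and 55825 and 65417 in LXRDKO livers, which overlapped.

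Glucose crosses the hepatocyte membrane through the transporter encoded by Slc2a2. Its counts were 29767 and 26217 in WT and 22419 and 24296 in LXRDKO livers, with the LXRDKO pair below the WT pair. The log2 fold change was −0.26 ± 0.12 (SE), with an adjusted P of 0.411. Gckr, the regulatory protein of glucose phosphorylation, had 12241 and 12016 against 12606 and 10529, so that the LXRDKO livers lay on either side of WT (log2 fold change −0.07 ± 0.12 [SE], adjusted P = 0.847). Khk, ketohexokinase, which traps fructose in the cell, measured 15269 and 13096 (WT) against 13708 and 12642 (LXRDKO). The genotypes overlapped, and the log2 fold change was −0.10 ± 0.11 (SE), with an adjusted P of 0.769.

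Among the 7 glycogen genes, 5 had a negative log2 fold change, among them Ppp1r3b, which turned positive under scaling to the library total. None was called by limma, edgeR or DESeq2 (1 of 7, Gys2, had an unadjusted limma P value under 0.05). Gys2, the liver glycogen synthase, measured 24928 and 30197 (WT) against 22249 and 21671 (LXRDKO). The LXRDKO livers were under the WT pair, with 0.797 of its mean (log2 fold change −0.32 ± 0.13 [SE], adjusted P = 0.365). Gbe1, the branching enzyme, was also lower in both LXRDKO livers, with 8632 and 8722 against 6429 and 7892 (log2 fold change −0.28). Pygl, the liver phosphorylase that breaks glycogen down, and Ugp2, which makes UDP-glucose, had log2 fold changes of −0.11 and 0.15 with overlapping livers.

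Ppp1r3b, Ppp1r3c and Ppp1r3g encode subunits that bring protein phosphatase to glycogen and so favour its synthesis, and their livers of one genotype differed more than the genotypes did. Ppp1r3b measured 11930 and 6956 (WT) against 6294 and 12245 (LXRDKO), a high and a low liver in each genotype. Its log2 fold change was −0.05 ± 0.38 (SE), with an adjusted P of 0.971. Ppp1r3c showed the same picture with 1328 and 888 against 1219 and 989 (log2 fold change 0.02 ± 0.22 [SE], adjusted P = 0.985). Ppp1r3g, on chromosome 13 from 35958839 to 35970388, measured 98.1 and 547 (WT) against 122 and 170 (LXRDKO). The WT livers enclosed both LXRDKO livers and differed by a ratio of 5.57. Its log2 fold change of −0.68 ± 0.77 (SE, adjusted P = 0.775) was −1.14 in DESeq2 and in edgeR, where it was the largest of the 36 in size although not called. In limma it moved to −1.91 without WT liver 1 (adjusted P = 0.0280) and to 0.55 without WT liver 2 (adjusted P = 0.531), so that WT liver 2 decided its direction. The remaining WT liver gave no spread of its own in either case.

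The pentose phosphate pathway had small differences. G6pdx and Pgd, the dehydrogenases that make NADPH, and Tkt and Taldo1, which return pentoses to glycolysis, had log2 fold changes from −0.12 to 0.11, and the livers of both genotypes overlapped in all 4. The member with the largest absolute value was Tkt, transketolase, which measured 10382 and 10270 (WT) against 8660 and 10438 (LXRDKO). LXRDKO liver 1 alone was low (log2 fold change −0.12 ± 0.12 [SE], adjusted P = 0.734). Of the 50-base stretches, 10.7% of G6pdx and 10.9% of Taldo1 also occur in other genes. For G6pdx these are G6pd2 and Ikbkg. Ikbkg overlaps it on the opposite strand and had a mean of 6721 normalized counts, against 201 for G6pdx. Whether the counting used the strand is not given in the sources used here.

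Mlxipl, on chromosome 5 from 135089890 to 135138382, measured 30720 and 28484 (WT) against 31377 and 26482 (LXRDKO). The LXRDKO livers enclosed both WT livers. The log2 fold change of −0.04 ± 0.13 (SE) had an adjusted P of 0.938 and turned positive under upper-quartile and library total scaling, and the 95% interval of −0.35 to 0.28 left room for neither a 1.5-fold rise nor a 1.5-fold fall of the summed transcripts. Counts per gene do not separate the α and β transcripts of ChREBP, and mRNA does not show the activity of the protein.

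The other regulators act on the fasting side. Ppargc1a, a coactivator of gluconeogenic genes, measured 657 and 743 (WT) against 826 and 1011 (LXRDKO). The LXRDKO pair was the higher (log2 fold change 0.39 ± 0.15 [SE], adjusted P = 0.356). Creb3l3, a membrane-bound transcription factor of the fasted liver, had 29221 and 29193 against 22248 and 25753. The WT livers were almost equal and both LXRDKO livers were lower (log2 fold change −0.29 ± 0.11 [SE], adjusted P = 0.373). Sik1, a kinase that restrains the coactivators of the cAMP response, measured 1782 and 3077 (WT) against 1939 and 3324 (LXRDKO). Each genotype had a low and a high liver with nearly the same values, and the log2 fold change was 0.12 ± 0.34 (SE), with an adjusted P of 0.927.

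**Figure D3:**
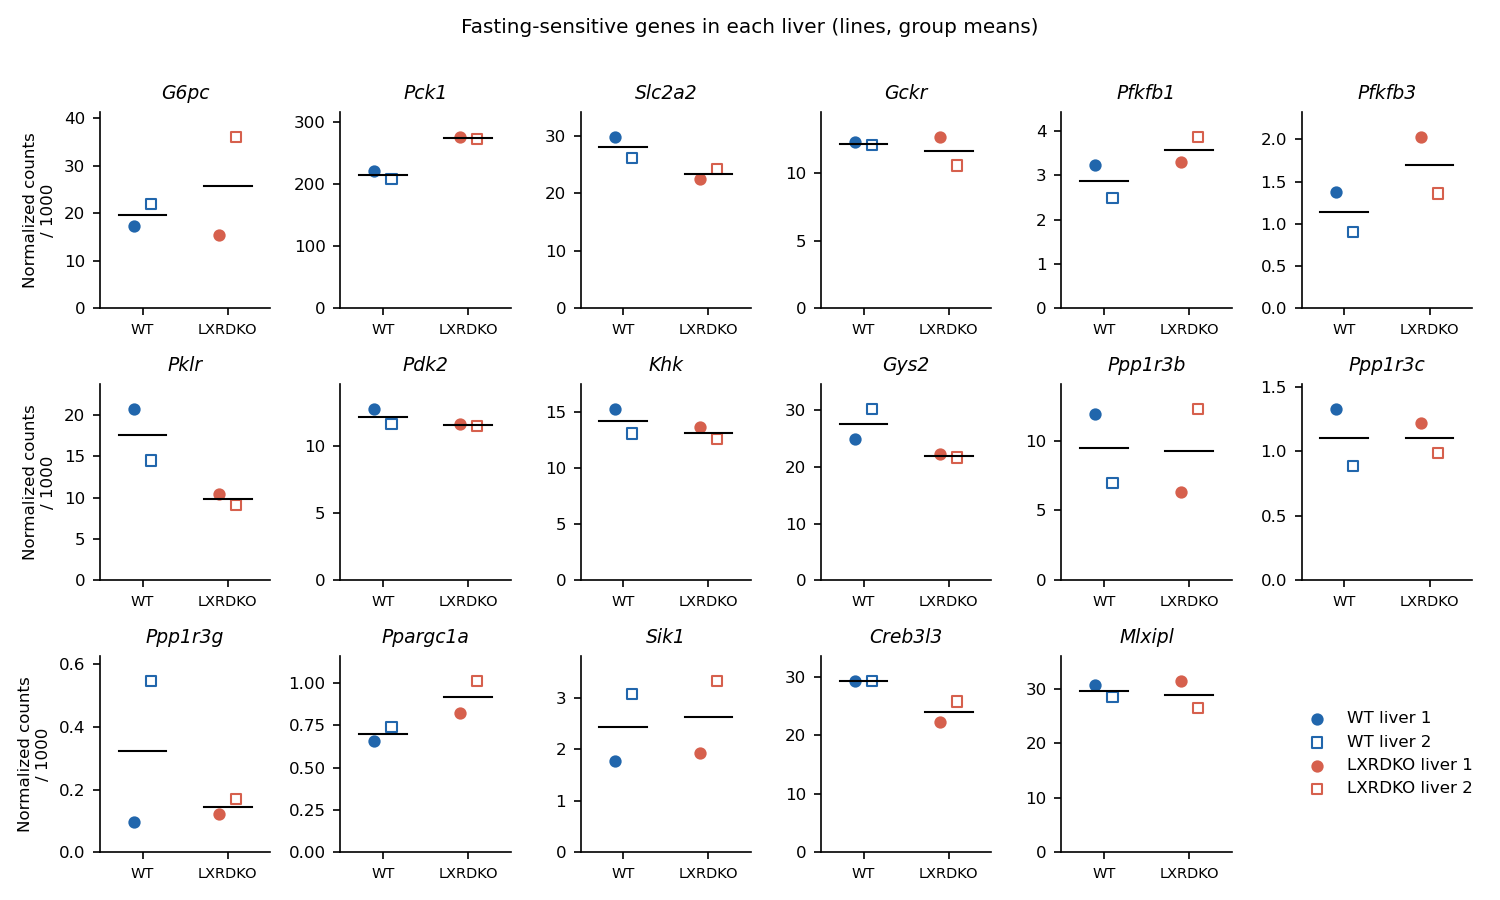
Normalized counts divided by 1000 (y axis, from 0) of the 17 fasting-sensitive members in each liver, WT at the left and LXRDKO at the right of each panel, with the group mean as a line. The genotypes do not overlap for Pck1, Slc2a2, Pfkfb1, Pklr, Gys2, Ppargc1a and Creb3l3, whereas Ppp1r3b, Sik1 and G6pc spread widely within a genotype. The LXRDKO pair is above the WT pair in 3 (17.6%, against 21.7% of all genes) and below it in 4 (23.5%, against 23.0%), shares near or below those of all genes.

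The 17 members known to answer to fasting and feeding were compared with the 19 others for the spread between livers. A difference of more than 0.5 on the log2 scale between livers of one genotype was found in 7 of the 17 (G6pc, Pfkfb3, Pklr, Ppp1r3b, Ppp1r3c, Ppp1r3g and Sik1) and in 1 of the 19 (G6pdx), against 28.5% of all genes and 13.7% of the genes with a mean at least that of the lowest member. For 26 of the 36 genes (72.2%) the larger difference between livers of one genotype exceeded the difference between genotypes, against 67.8% of all genes. The 10 genes for which it did not were Pck1, Slc37a4, Slc2a2, Pfkl, Pgam1, Pklr, Ldha, Gys2, Ppargc1a and Creb3l3.

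**Figure D4:**
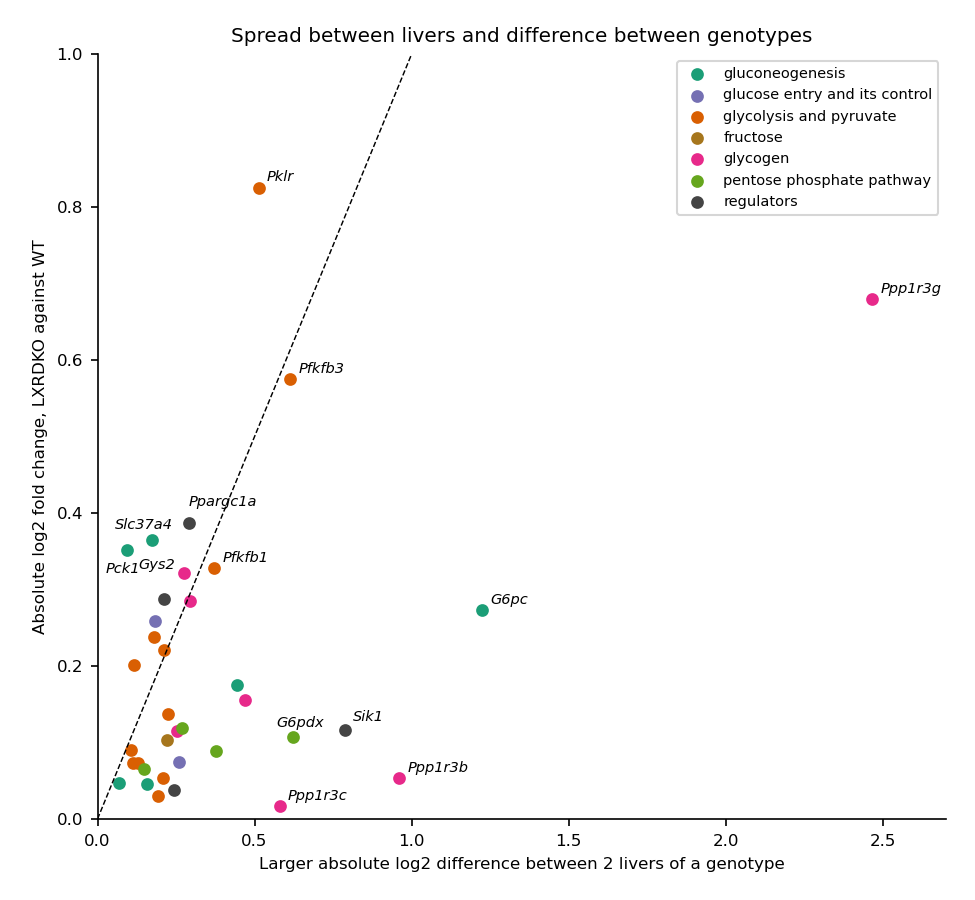
Absolute log2 fold change between genotypes (y axis) against the larger of the 2 absolute log2 differences between livers of one genotype (x axis), 1 point per gene, coloured by role. On the dashed line both are equal. Pklr is the highest point and lies above the line, and Ppp1r3g lies farthest right, at 2.47.

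Other genes known to answer to fasting spread in the same livers. Igfbp1, which insulin represses, measured 1874 and 4606 (WT) against 1831 and 4694 (LXRDKO), and Pdk4 212 and 525 against 115 and 731. Thus liver 2 was the higher one in both genotypes, as for 8 of the 12 genes on the list of fasting and feeding responses. Of the 17 fasting-sensitive members, 4 (G6pc, Ppp1r3g, Ppargc1a and Sik1) were also higher in liver 2 of both genotypes, 8 were lower in liver 2 of both, Pklr and Pck1 among them, and 5 differed in direction. Over all genes tested, 3796 were higher and 3820 lower in liver 2 of both genotypes. No pairing of mice between genotypes by these liver numbers was given in the sources used here. Whether fasting time differed between mice was not tested. Of 8 clock genes tested, none was called by limma, edgeR or DESeq2, although 5 passed an unadjusted limma P of 0.05 (62.5%, against 13.3% of all genes) with log2 fold changes from −0.64 to 0.78, and the part of the time of day in the values above was not tested either.

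In pericentral hepatocytes glycolysis prevails and in periportal ones gluconeogenesis. Summed pericentral markers measured 756756 and 475072 (WT) against 766456 and 722148 (LXRDKO), with WT liver 2 lowest, and periportal markers 195773 and 205474 against 229968 and 190929. Of the 7 pericentral markers, 6 had a positive log2 fold change, and the median was 0.47. The LXRDKO pair was above the WT pair in 4 (57.1%, against 21.7% of all genes) and below it in 0. None of the 7 pericentral markers was called by limma, edgeR or DESeq2 (1 of 7 with an unadjusted limma P value under 0.05). Of the 6 periportal markers, 1 (Sds) was called by DESeq2 and none by limma or edgeR. The part of zonation in the values of the 36 genes was not tested.

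Around these 36 genes, 101 further genes of the same pathways and their regulators were tested, with a median log2 fold change of −0.02. Limma called 1 of them (0.990%, against 0.321% of all genes) and DESeq2 10 (9.90%, against 3.59%). The lists were chosen with earlier results of these data known, so no excess over all genes can be read from these shares. Got1, the cytosolic aspartate aminotransferase, measured 16831 and 20585 (WT) against 50704 and 57568 (LXRDKO). Both LXRDKO livers were far above both WT livers (log2 fold change 1.54 ± 0.14 [SE], adjusted P = 0.0333). DESeq2 also called 3 enzymes that turn amino acids into precursors of glucose, and in each the LXRDKO pair was the higher. Gpt2 measured 42904 and 36918 (WT) against 59693 and 61974 (LXRDKO), a log2 fold change of 0.61 in limma. Sds measured 10837 and 18030 against 32104 and 26549 (1.06), and Tat 69293 and 71976 against 95645 and 127585 (0.65). Of the 29 further glycolytic genes it called 3 as higher, again without overlap of the livers. Pfkfb4 measured 38.8 and 47.5 against 104 and 120 (1.36), Aldoc 1000.3 and 1203 against 1638 and 2679 (0.93), and Pfkfb2 934 and 809 against 1309 and 1296 (0.58). Among the genes of fructose and polyols, Slc2a9 was lower with 3676 and 4028 against 2849 and 2770 (−0.45). Hnf4a was higher among 16 other regulators, with 44147 and 38999 against 70769 and 56007 (0.60). Of 21 further glycogen genes and 8 of the pentose phosphate pathway, none was called by limma, edgeR or DESeq2 (3 and 1 with an unadjusted limma P value under 0.05).

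Partners and targets of ChREBP other than members of the group numbered 16. Mlx, with which ChREBP binds DNA, had a log2 fold change of 0.06 (adjusted P = 0.843, limma), and Txnip, a glucose-responsive target, measured 7563 and 20599 (WT) against 3957 and 12425 (LXRDKO). Limma called Acacb, with 12108 and 15991 against 2822 and 3501 (log2 fold change −2.15, adjusted P = 0.0255). DESeq2 called it too, together with Fasn, which measured 31771 and 51989 against 10096 and 13651 (−1.79), and Scd1, with 555930 and 1098392 against 28020 and 69359 (−4.15). All 3 act in fatty acid metabolism and all were lower in both LXRDKO livers. The same enzymes are targets of SREBP-1c, whose gene Srebf1 was lower as well, with 22205 and 24071 against 3118 and 5287 (−2.51, adjusted P = 0.0407). Apart from Acacb, Fasn and Scd1, Pklr was the 1 gene among the ChREBP partners and targets, members included, that DESeq2 called.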

How the data were processed

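RNA of the left liver lobe of 2 WT and 2 LXRDKO mice, 1 library each, was captured as mRNA with the KAPA Stranded kit and sequenced as single-end reads. The authors checked reads with FastQC, aligned them to mm10 with STAR 2.6.0c and normalized counts with DESeq2. The counting tool and annotation release are not given in the sources used here. The deposited values, a signal, are counts divided by 1 size factor per library (0.877 and 1.18 for WT, 1.05 and 0.933 for LXRDKO). All values (100%) were whole reads within a tolerance of 0.001. The authors' counts were thus recovered for DESeq2 1.42.0 and edgeR 4.0.16.

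Log2(normalized count + 1) was compared with limma 3.58.1 in R 4.3.3 (variance trend, empirical Bayes, two-sided) over 15578 genes (mean of 10 or more), with Benjamini-Hochberg adjustment over all of them and a threshold of 0.05. Fold changes on this scale are understated for low genes. Positions, exon lengths and 50-base stretches came from GENCODE M21, promoter windows from RefSeq. The design allows few calls, and P values rest on the spread between these mice pooled over genes. No pairing of mice by replicate number was given in the sources used here. The correlation of the replicate deviations between genotypes was 0.0031 over the genes tested, a value that tells nothing about a subset of genes. The members and lists were chosen with earlier results of these data known. Per-liver values were printed for the pathway genes and members called by any tool, the fasting-sensitive members and the largest difference of each role. The scripts were tested on simulated data. ATAC-Seq was not analysed here. A gene among those called is not reported here.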

Additional observations from a re-analysis of the deposited data

How the results depend on the processing

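Limma called 50 genes, and 25 with a mean of at least 50, 1 without the variance trend (1873 at an unadjusted P under 0.05), 567 in DESeq2 and 2 to 262 with a liver left out (a single liver then stands for its genotype and is assumed to vary like the other: 2 without LXRDKO liver 1, 8 without LXRDKO liver 2, 157 without WT liver 2, 262 without WT liver 1). With the replicate number as a block 90 genes and 0 of the 36 members were called, but no pairing by that number was given in the sources used here. Members called were 0 in limma under each setting with all livers and in edgeR, 1 in DESeq2 (Pklr), and 0 to 1 with a liver left out (Ppp1r3g without WT liver 1, Pklr without WT liver 2). DESeq2 with a liver left out, added after seeing the data, called 0 to 2 members: Pfkfb3 and Ppp1r3g without WT liver 1, Pklr without WT liver 2, Pklr and G6pc without LXRDKO liver 1.

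The members' median log2 fold change of −0.073 moved to −0.033 under upper-quartile scaling and −0.018 under scaling to the library total, settings that shift all genes alike (all genes tested from −0.0046 to 0.036 and 0.050), so that the distance of the members from all genes was −0.068 in each. It ran from −0.085 to −0.055 with a liver left out. Under the 12 alternatives with all livers, 8 of 432 member values changed sign, each near 0: Eno1 (0.011) and Mlxipl (0.0032) under upper-quartile scaling, Eno1 (0.025), Mlxipl (0.017), Tpi1 (0.00040), Ppp1r3b (0.0013) and Pcx (0.0085) under scaling to the library total, and Ppp1r3c (−0.0031) in DESeq2. With a liver left out, 24 of 144 values changed sign, in these ranges of log2 fold change: G6pdx −0.20 to 0.42, Khk −0.21 to 0.0075, Mlxipl −0.16 to 0.085, Ppp1r3b −0.53 to 0.43, Pygl −0.24 to 0.011, Sik1 −0.28 to 0.51, Pcx −0.13 to 0.033, Eno1 −0.13 to 0.067, Taldo1 −0.0089 to 0.14, Pck2 −0.40 to 0.047, Ugp2 −0.080 to 0.39, Ppp1r3g −1.91 to 0.55, Ppp1r3c −0.27 to 0.31, Pgd −0.28 to 0.099, Tpi1 −0.16 to 0.050, Tkt −0.25 to 0.016, Gckr −0.20 to 0.056, G6pc −0.34 to 0.89. The sign of 18 members, Pklr, Pck1, Slc37a4, Gys2, Ppargc1a and Creb3l3 among them, never changed under the 16 alternatives. Where a value moved, the cause was not tested. With 2 livers per genotype, differences such as that of G6pc were not detectable within the spread of the livers.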
